A study of Mus musculus with 8 samples.

Results

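The genes described here encode proteins of the cytosolic ribosome or are paralogs and retrocopies of such genes. They were taken by symbol from the deposited gene table: names beginning with Rpl or Rps and a number, the P-stalk genes Rplp0, Rplp1 and Rplp2, and Rpsa, leaving out ribosomal S6 kinases, a binding protein of Rps19 and pseudogenes. This rule found 89 of the 13751 genes of the table. Of these, 43 encode large-subunit proteins, 31 small-subunit proteins and 3 the P-stalk, making 77 subunit and P-stalk genes. The remaining 12 are paralogs or retrocopies of such genes: Rpl22l1, Rpl32l, Rpl36al, Rpl37rt, Rpl39l, Rpl6l, Rpl7l1, Rps27l, Rps27rt, Rps3a2, Rps3a3 and Rps4l. All 89 passed the filter on low counts.

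Naive CD4 T cells were sorted from peripheral lymph nodes of wild-type C57BL/6 mice, whose age and sex the labels do not give. They were cultured in medium with 10% FCS and activated for 20 h by coated antibodies, 4 µg/mL of anti-CD3 against the T cell receptor complex and 4 µg/mL of anti-CD28 against a costimulatory receptor. Each of 4 mice gave a culture without added iron (control) and another with iron supplementation (FAC), for 4 control and 4 FAC libraries made from 250 ng of RNA each by a stranded mRNA method. The labels give neither the dose of FAC nor a vehicle for the control, and both groups carry the same activation. A library is named by its group and mouse number. The comparison asks how iron acts on the transcripts of activated T cells.

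The cytosolic ribosome joins a small subunit, which reads the mRNA, to a large subunit, which forms peptide bonds, and each holds many proteins on a core of ribosomal RNA. A resting T cell makes few ribosomes, and activation through the T cell receptor raises their production before the cell divides. Many mRNAs for ribosomal proteins begin with a C followed by an unbroken stretch of C and T (U in the RNA), the 5′ terminal oligopyrimidine or TOP sequence, through which mTORC1 signalling controls their translation. An mRNA level says nothing of that translation.

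Start-site sequences were read from the RefSeq promoter table (build GRCm38.p6) to show which genes carry a TOP-like start. The table held 65 of the 89 genes. Each sequence below is 30 bases of the gene's strand, 10 before the annotated start and 20 from it, and the capitals mark the unbroken run of C and T that begins at the annotated start. The first 5 have a C at the start followed by at least 4 bases that are each C or T.
Rpl15 (chr14:18270967-18270996, minus strand): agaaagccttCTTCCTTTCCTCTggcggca
Rps6 (chr4:86857348-86857377, minus strand): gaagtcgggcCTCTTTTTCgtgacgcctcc
Rplp2 (chr7:141447641-141447670, plus strand): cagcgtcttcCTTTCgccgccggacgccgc
Rps27 (chr3:90213629-90213658, minus strand): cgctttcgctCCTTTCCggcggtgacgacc
Rps27rt (chr9:114982720-114982749, minus strand): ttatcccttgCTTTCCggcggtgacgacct
The next 5 are the genes called over all 8 libraries with or without the mouse in the model, and none begins with such a run at its annotated start.
Rpl7l1 (chr17:46782637-46782666, minus strand): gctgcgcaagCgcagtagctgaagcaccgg
Rps27l (chr9:66946076-66946105, plus strand): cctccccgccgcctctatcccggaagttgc
Rpl37a (chr1:72711250-72711279, plus strand): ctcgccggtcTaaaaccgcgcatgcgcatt
Rpl41 (chr10:128549149-128549178, minus strand): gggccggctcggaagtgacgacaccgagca
Rps3 (chr7:99483690-99483719, minus strand): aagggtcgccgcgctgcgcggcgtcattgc

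A gene with several annotated starts was counted, here and for the features below, if any of its starts had the feature. A TOP-like start by this definition stood at an annotated start of 13 of the 57 subunit and P-stalk genes in the table (22.8%). It also stood at one of 2 of 8 paralogs and retrocopies, Rpl32l and Rps27rt. It stood at 0 of 69 mitochondrial ribosomal protein genes and at 813 of all 27025 genes of the table (3.01%). An unbroken run of at least 8 bases that are each C or T, anywhere from 20 bases before to 50 after the start on the gene's strand, was in 45 of the 57 (78.9%), in 18 of the 69 (26.1%) and in 28.5% of all. Annotated starts can lie a few bases from the start a cell uses, so a missing run at the annotated base does not show that the transcript lacks one. The letters CCGGAAGT, a motif bound by ETS-family factors, stood on either strand between 250 bases before and 50 after the start in 11 of the 57 (19.3%), in 12 of the 69 (17.4%) and in 4.31% of all. The first 38 bases of the Rps27rt transcript were those of Rps27 from its second base on. The median log2 change with FAC was -0.04 for the 13 genes with a TOP-like start and -0.06 for the other 44.

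Levels were compared as TPM (transcript abundance scaled for length and to the same total in every library), averaged over all 8 libraries. The 77 subunit and P-stalk genes lay within 6.96-fold of each other, from 6912 TPM for Rplp1 to 993 TPM for Rpl39. Rplp1 encodes an acidic P-stalk protein that binds translation factors. Next came Rpl41 (6411 TPM), which encodes an extremely short and basic protein, Rps2 (5627 TPM) and Rpsa (5565 TPM), both of the small subunit, and Rpl23a (5052 TPM), which lies at the exit of the peptide tunnel. Of these neighbours in the order, only Rpl41 and Rps2 had library ranges that did not overlap. Rplp0, the scaffold of the P-stalk, stood at 4899 TPM and Rplp2, the partner of Rplp1, at 2743 TPM.

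**Figure D1:**
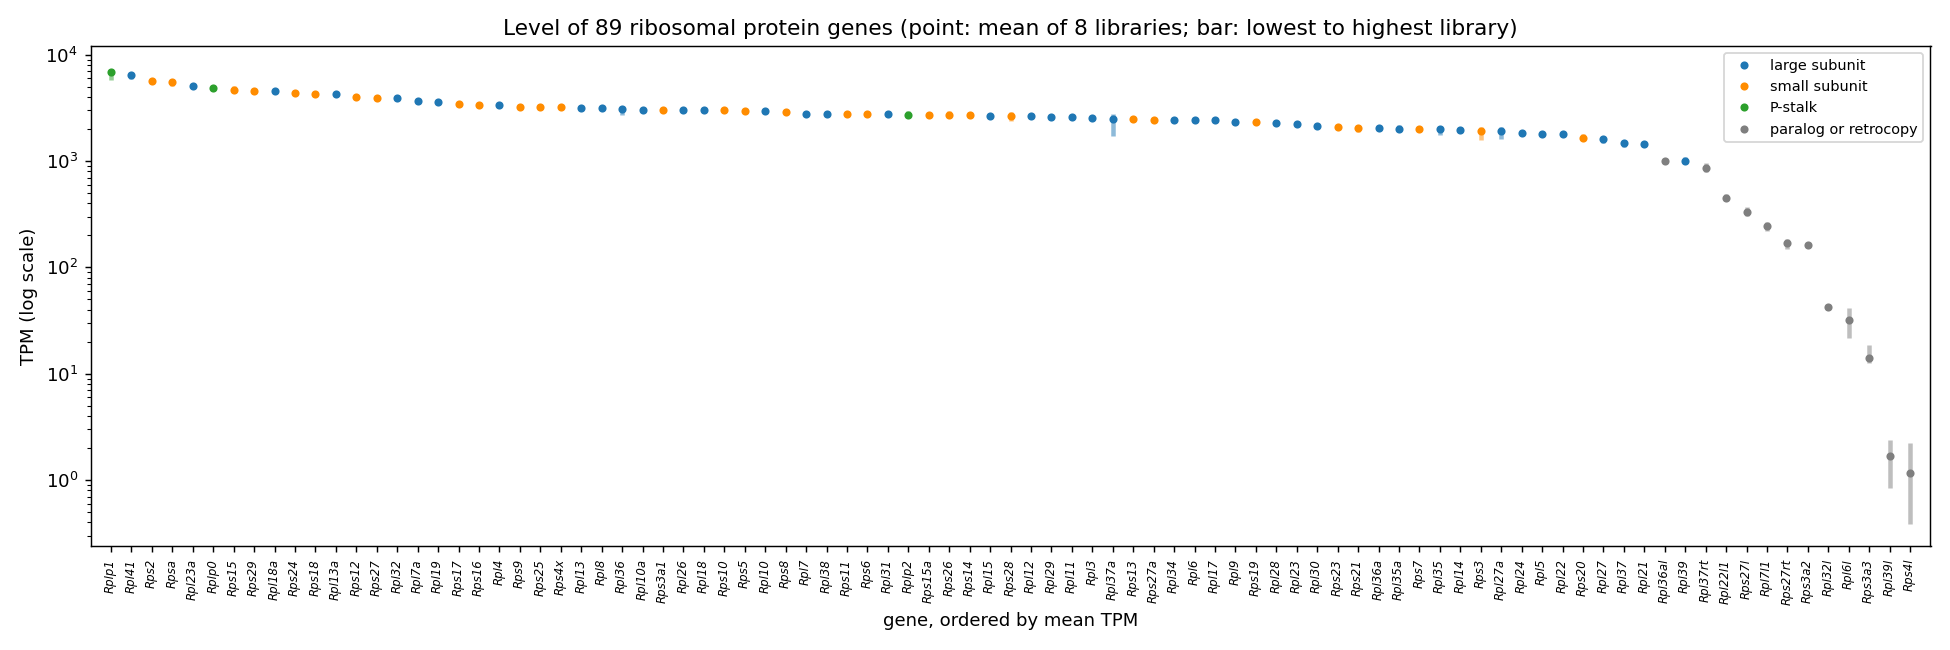
Mean level of each of the 89 genes in TPM on a log axis, ordered from highest to lowest, with a bar from the lowest to the highest of the 8 libraries and colours for the class. The 77 subunit and P-stalk genes form a plateau between 6912 and 993 TPM, and the paralogs and retrocopies (grey) make up the tail, except that Rpl36al stands just above Rpl39.

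The 12 paralogs and retrocopies had a median of 166 TPM. Rpl36al, at 999 TPM, lay beside Rpl39 with overlapping library ranges, and the others had mean levels below every subunit gene, among them Rpl37rt at 870 TPM and Rpl22l1 at 446 TPM. Lowest were Rps4l (1.16 TPM, 10 to 48 counts per library), Rpl39l (1.67 TPM, 9 to 39 counts), Rps3a3 (14.1 TPM), Rpl6l (31.8 TPM) and Rpl32l (42.2 TPM). Rps4l and Rpl39l were the members nearest above the filter on low counts. No member lay below it, and of genes with names of the same form outside the deposited table Rpl3l had 2 counts in FAC 2 and 0 elsewhere, while Rpl10l and Rps12l1 had 0 in every library.

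Reads of these genes can be shared with near-identical copies. Counts of 309 genes named as pseudogenes of a member were 2.82% ± 0.0664 of the summed counts of members and pseudogenes in control and 2.90% ± 0.0616 with FAC (SD, n = 4). The pseudogene share was highest for Rpl31 (15.2%), Rps23 (14.2%), Rps7 (13.2%), Rps6 (13.0%) and Rpl36a (12.5%). How the counting divided reads among copies is uncertain for these genes and for all retrocopies. Adding the pseudogene counts to each member left Rpl7l1 as the only member called.

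Total counts per library ran from 25410299 to 37350654. Cd4 lay at 299 to 317 TPM and the T cell genes Cd3e, Cd3d, Cd3g, Trac, Trbc1, Trbc2, Thy1 and Lck were all above 100 TPM, while Cd8a reached at most 0.21 TPM although Cd8b1 lay at 6.51 to 10.9 TPM. Lyz2, Ncr1 and Siglech, which mark myeloid, natural killer and plasmacytoid dendritic cells, were at 0 in all libraries. Cd68, a lysosomal gene on the myeloid list, lay at 2.16 to 2.98 TPM in control and 2.82 to 4.86 TPM with FAC. Haemoglobin genes were seen only in control 3 (2.90 to 5.22 TPM). These are bulk libraries, in which fewer cells of a type and less RNA per cell cannot be told apart.

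With FAC, Rpl7l1, 1 of the 12 paralogs and retrocopies, fell in the main test, though not in every alternative run. The other 88 genes, among them all 77 subunit and P-stalk genes, did not pass this test on the group alone, which leaves out the pairing by mouse. With the mouse in the model 5 members passed, all lower with FAC, against 2.8% of all tested genes called lower. These 5 included the subunit genes Rpl37a, Rpl41 and Rps3. On the group alone the log2 change was below 0 for 81 of 89 members, against 6739 of all 13378 genes tested. The median was -0.06 (-3.89%) for the members, against -0.00 over all genes tested. The members share their libraries, so these 81 are not separate results. The change was measured by edgeR's quasi-likelihood test over all 8 libraries, and the threshold for calling a gene was 0.05 after Benjamini-Hochberg adjustment. By this rule 1 of 89 members was called, lower with FAC, and 0 higher. Over all tested genes 3.27% were called in either direction, 1.1% lower and 2.18% higher. The count of members called lower was thus near the share over all genes. An unadjusted p under 0.05 was found for 12 of 89 members, all lower with FAC, against 18.4% of all genes.

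The members moved little. The log2 change ran from -0.25 for Rpl37a to 0.22 for Rps4l, a gene of few counts, and the highest among subunit and P-stalk genes was 0.04 for Rpl10a. It exceeded 0.1 in size for 13 of 89 members, against 47.8% of all genes. The median SE of the log2 change was 0.0435 for the members and 0.0809 over all genes, and the median coefficient of variation of the TPM between control libraries was 3.31% for the members and 9.75% over all genes. The large subunit, small subunit and P-stalk had medians of -0.06, -0.06 and -0.08, and the paralogs and retrocopies -0.04. Across the 77 subunit and P-stalk genes the change had a Spearman correlation of 0.044 with effective length and of -0.14 with mean TPM, which are descriptions across genes that share their libraries. The 10 shortest of these genes (191 to 342 bases of effective length) had a median of -0.07 and the 10 longest (822 to 1335 bases) of -0.06.

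**Figure D2:**
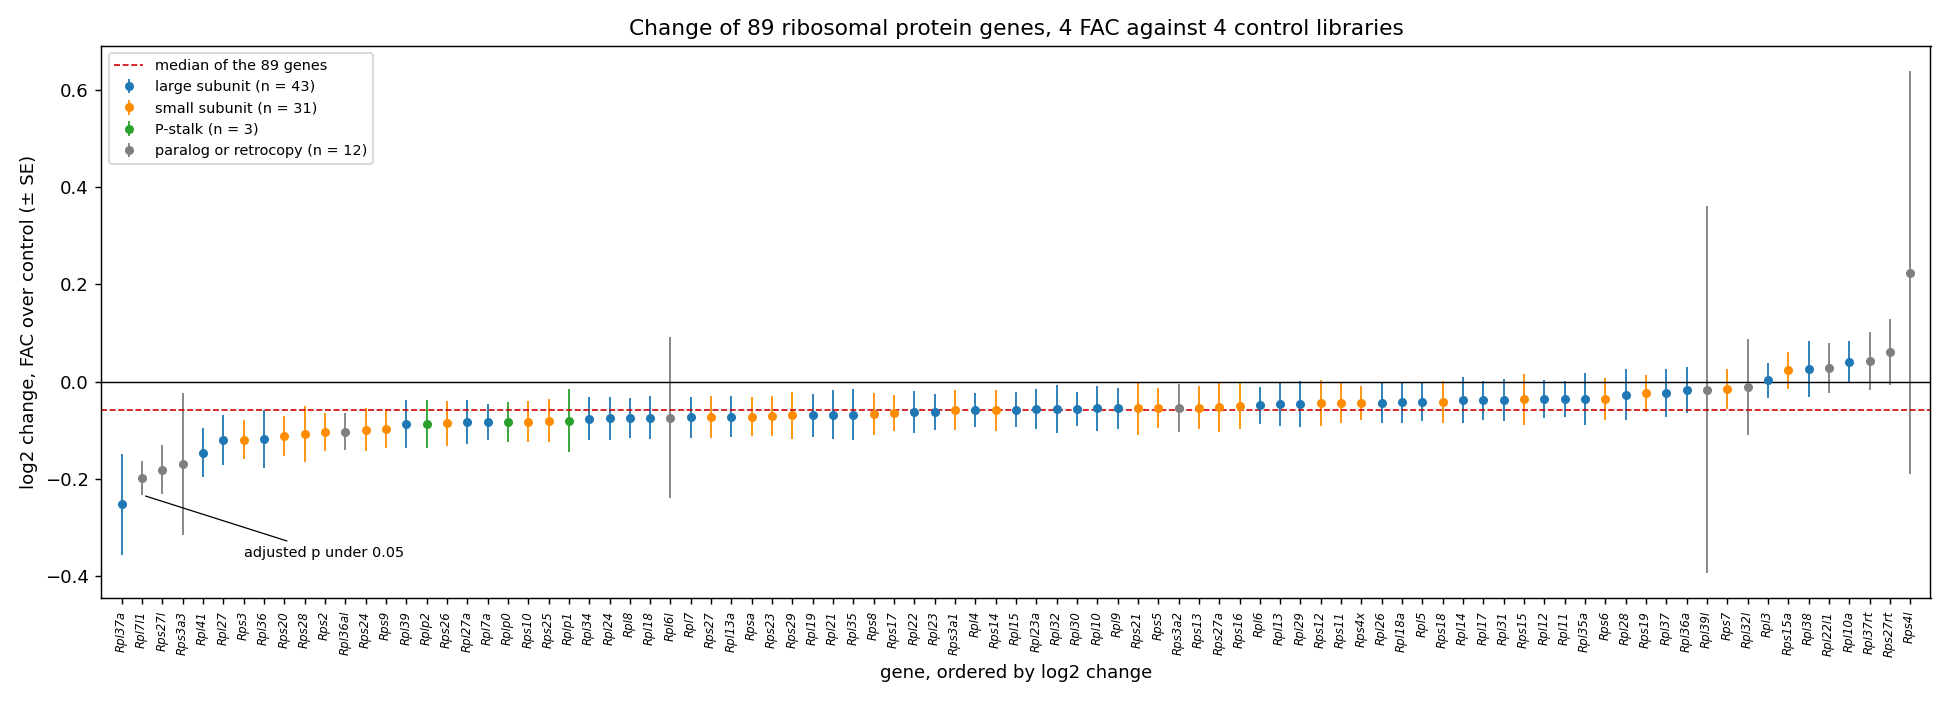
Log2 change with FAC of each of the 89 genes (point) with its SE (bar), ordered from lowest to highest and coloured by class. The dashed line is their median, -0.06; 81 points lie below 0, and only Rpl7l1 had an adjusted p under 0.05.

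The small shift was not shared by all mice. Within mouse 1, 2, 3 and 4 the median log2 difference of the 89 genes, FAC minus control, was -0.07, -0.14, -0.04 and 0.03. In the same mice 79, 87, 68 and 28 of the 89 genes were lower with FAC. The difference was thus below 0 for most members in mice 1 to 3 and above 0 for 61 of 89 in mouse 4. Of the 89, 23 were lower in all 4 mice, against 15.4% of all genes tested. In all 4 mice 0 were higher, against 1957 of the 13378 genes tested. Another 43 were lower in mice 1 to 3 and higher in mouse 4. This pattern and the counts within single mice were not taken over all genes. The medians over all tested genes in mice 1 to 4 were -0.00, -0.00, 0.00 and -0.01.

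**Figure D3:**
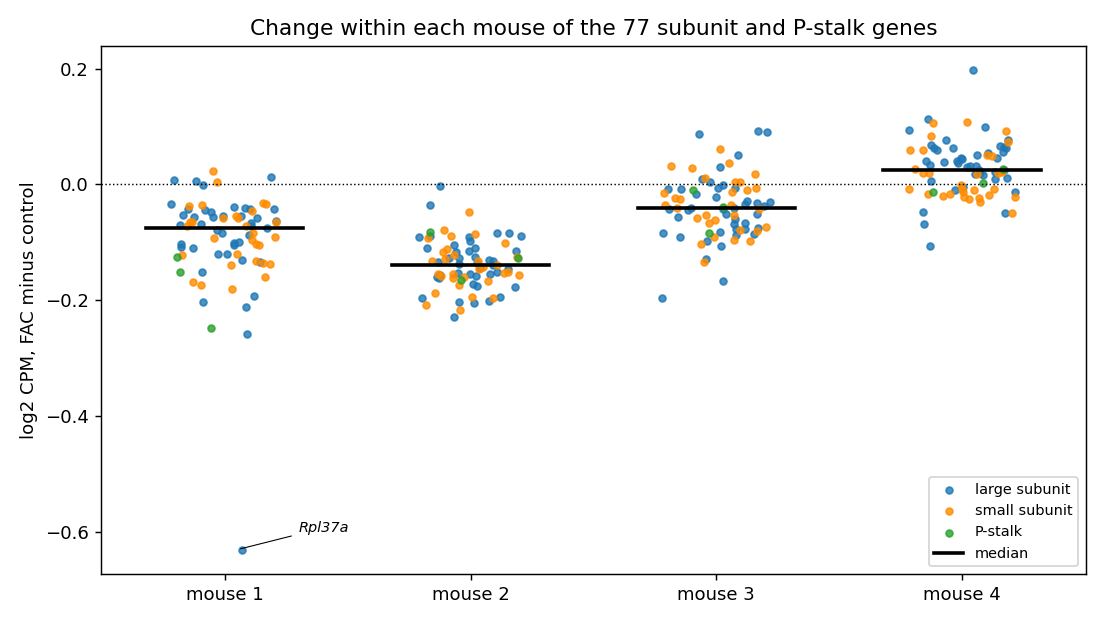
Difference in log2 CPM, FAC minus control, within each mouse for the 77 subunit and P-stalk genes, coloured by class, with the median as a black line. The clouds of mice 1 to 3 lie mostly below 0 and that of mouse 4 mostly above; Rpl37a in mouse 1 stands apart at -0.63.

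By library, the 77 subunit and P-stalk genes were set against their own means over the 8 libraries. The median deviation in log2 was 0.01, 0.13, -0.02 and -0.00 in control 1 to 4 and -0.06, -0.01, -0.06 and 0.02 in FAC 1 to 4. Control 2 stood apart, with 77 of 77 genes above their own mean, whereas 6 were above it in FAC 1 and 3 in FAC 3. Without control 2 the median log2 change of the 89 members was -0.02, with 69 of them below 0.

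The share of all counts that fell on the 89 genes was 9.18%, 9.82%, 9.03% and 9.14% in control 1 to 4 and 8.70%, 9.17%, 8.88% and 9.38% in FAC 1 to 4. The groups overlapped, and the share was lower with FAC in 3 of 4 mice. The means were 9.29% ± 0.356 and 9.03% ± 0.300 (SD, n = 4), a difference of -0.259 points that was within the spread between replicates. It was -0.0838 without control 2 and -0.149 without FAC 1. As a share of TPM the means were 23.7% ± 0.512 and 23.2% ± 0.606. Counts from the mitochondrial genome took 1.40%, 1.58%, 1.47% and 1.35% in control and 1.84%, 1.64%, 1.74% and 1.22% with FAC. That share was higher with FAC in mice 1 to 3 and lower in mouse 4, the reverse of the ribosomal protein share, and its part in the result was not tested. The 78 tested genes of the mitochondrial ribosome, a separate set of proteins encoded in the nucleus, took 0.480% ± 0.0116 in control and 0.461% ± 0.00933 with FAC, lower in 4 of 4 mice.

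**Figure D4:**
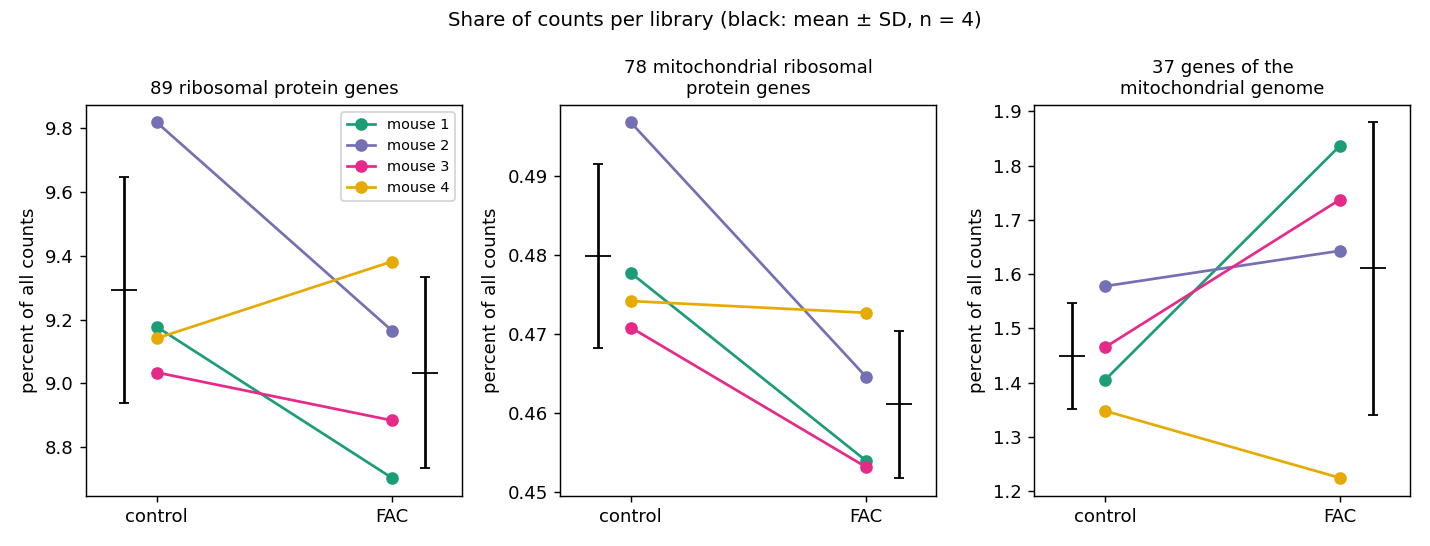
Percent of all counts in each library taken by the 89 ribosomal protein genes (left), the 78 mitochondrial ribosomal protein genes (middle) and the 37 genes of the mitochondrial genome (right), with lines joining the cultures of a mouse, the mean ± SD in black and axes that do not start at 0. The left share is lower with FAC in 3 of 4 mice and the middle share in 4 of 4, while the right share is higher in 3 of 4.

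The mouse as a replicate block, which compares cultures of the same animal, moved the count of called members from 1 to 5, all lower with FAC: Rpl7l1, Rpl37a, Rps27l, Rpl41 and Rps3. In that fit 6.87% of all tested genes were called and 2.8% were called lower. The same fit without mouse 4 called 22 members, all lower, against 3.58% of genes called lower. Without mouse 1 it called 3 members lower (Rpl37a, Rpl7l1, Rps27l), against 2.03% of genes, and without mouse 2 it called 2 lower (Rpl37a, Rpl7l1), against 1.34%. Without mouse 3 it called 0, against 0.515% of genes called lower. At an unadjusted p under 0.05, 16 members were lower. No share over all genes was taken at that limit in this fit, so the count is not a result about the members. In this last fit the median change was -0.07.

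Rpl7l1 (ENSMUSG00000063888), a paralog of the large-subunit gene Rpl7, lay at 329, 334, 325 and 320 CPM (counts scaled to a common library total with TMM factors) in control 1 to 4 and at 294, 293, 277 and 277 CPM in FAC 1 to 4. The groups did not overlap, and each mouse was lower with FAC by 0.17 to 0.23 in log2. The log2 change was -0.20 (SE 0.03, edgeR adjusted p = 0.00874, and 0.00177 with the block). The call held when any 1 of the 8 libraries was left out, with adjusted p of at most 0.0433, but ended in the blocked fit without mouse 3 (0.0507). It also ended where effective length, an RSEM estimate of usable transcript length, entered the value: 1781 ± 57.8 bases in control and 1727 ± 55.3 with FAC. As an offset, that length gave a log2 change of -0.15 (adjusted p = 0.105), and limma on log2(TPM + 1) gave -0.12 (adjusted p = 0.229).

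Rps27l (ENSMUSG00000036781), a p53-inducible paralog of Rps27, lay at 85.4, 95.0, 83.5 and 84.6 CPM in control and 81.5, 75.8, 75.6 and 74.7 CPM with FAC. The groups did not overlap, although FAC 1 lay nearer to the lowest control than to the next FAC library. The log2 change was -0.18 (SE 0.05, edgeR adjusted p = 0.0735, and 0.0322 with the block), and DESeq2 also called it lower.

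Rpl37a (ENSMUSG00000046330), of the large subunit, had the lowest log2 change of the 89 over all libraries. It lay at 756, 843, 748 and 795 CPM in control and 488, 759, 653 and 739 CPM with FAC. FAC 1 stood far below the rest and the groups overlapped at FAC 2, but each mouse was lower with FAC. The log2 change was -0.25 (SE 0.10, edgeR adjusted p = 0.213, and 0.0276 with the block), made up of -0.63, -0.15, -0.20 and -0.11 in mice 1 to 4. Without FAC 1 it was -0.13, less far from 0 than the -0.21 of Rpl7l1 in that fit.

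Rpl41 (ENSMUSG00000093674) lay at 1560, 1706, 1554 and 1587 CPM in control and 1356, 1455, 1385 and 1594 CPM with FAC. FAC 4 lay among the controls and the other FAC libraries below all of them. The log2 change was -0.15 (SE 0.05, edgeR adjusted p = 0.141, and 0.0357 with the block).

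Rps3 (ENSMUSG00000030744), which lines the channel by which mRNA enters the small subunit, lay at 1492, 1594, 1482 and 1461 CPM in control and 1328, 1432, 1351 and 1438 CPM with FAC. The groups did not overlap, but mouse 4 differed by only -0.02 in log2. The log2 change was -0.12 (SE 0.04, edgeR adjusted p = 0.131, and 0.0437 with the block). Its effective length was 1198 bases in FAC 1 and 1016 to 1066 bases elsewhere, and its TPM was 1564 in FAC 1 and 1821 to 2096 elsewhere.

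**Figure D5:**
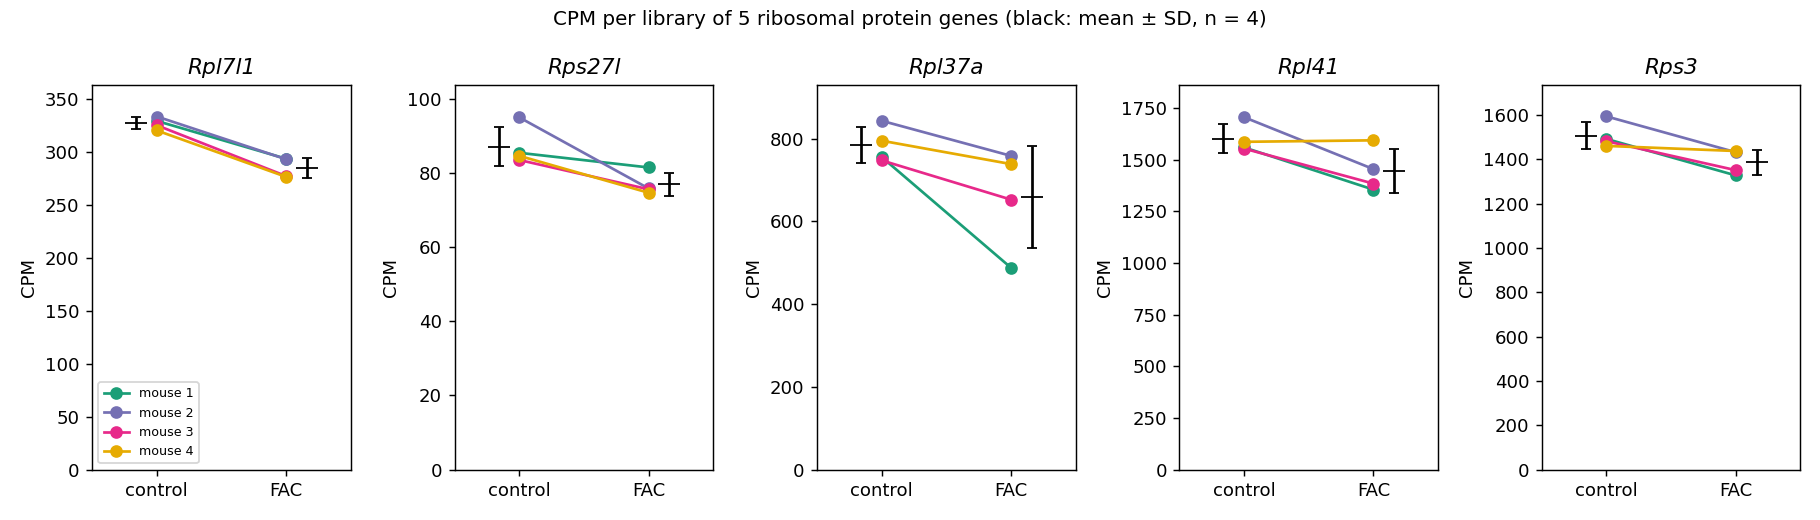
CPM of Rpl7l1, Rps27l, Rpl37a, Rpl41 and Rps3 in control and FAC libraries, with lines joining the cultures of a mouse and the mean ± SD in black. Rpl7l1 falls in parallel in all 4 mice, Rpl37a is pulled down by mouse 1, and Rpl41 in mouse 4 does not fall.

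In all, 7 of 89 members had control and FAC libraries that did not overlap, against 11.1% of all tested genes. They were Rpl7l1, Rps27l, Rpl36al, Rps2, Rps3, Rps20 and Rps26, each lower with FAC, as 4.89% of all tested genes were without overlap; Rps20 and Rps26 are outside the rule for named genes and were chosen after their values were seen. Rps2 (ENSMUSG00000044533), a small-subunit gene, lay at 3382, 3557, 3308 and 3317 CPM in control and 3026, 3222, 3080 and 3298 CPM with FAC. Its highest FAC library reached almost to its lowest control, and the change of -0.10 did not pass (SE 0.04, edgeR adjusted p = 0.175, and 0.0717 with the block).

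The P-stalk, where GTPase translation factors bind, is built of the products of Rplp0, Rplp1 and Rplp2, and none of the 3 passed. Rplp0 (ENSMUSG00000067274) lay at 3432, 3631, 3473 and 3567 CPM in control and 3147, 3324, 3275 and 3572 CPM with FAC. FAC 4 lay at the level of control 4 and the other FAC libraries below every control (log2 change -0.08, SE 0.04, edgeR adjusted p = 0.310). Rplp1 (ENSMUSG00000007892) was lowest in FAC 1, at 1400 CPM, and lay between 1664 and 1822 CPM in the other libraries. Its log2 change was -0.08 (SE 0.06, edgeR adjusted p = 0.549), but -0.01 without FAC 1 and -0.13 without FAC 4. Rplp2 had a change of -0.09 (adjusted p = 0.376), and of -0.03 without control 2.

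Among other small-subunit genes, Rpsa, whose product sits at the mRNA exit, went from 3694 ± 87.6 to 3515 ± 186 CPM (log2 change -0.07, adjusted p = 0.375). Rps6, the substrate of S6 kinase downstream of mTORC1, went from 1458 ± 82.7 to 1423 ± 46.1 CPM (-0.03, adjusted p = 0.719). Rps19, mutated in Diamond-Blackfan anaemia, went from 832 ± 36.9 to 819 ± 18.8 CPM (-0.02, adjusted p = 0.789). Rps27a, whose product is made as a fusion to ubiquitin, went from 946 ± 73.6 to 913 ± 35.6 CPM (-0.05, adjusted p = 0.639). None of these passed, and in each the 2 groups overlapped (SD, n = 4).

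Among other large-subunit genes, Rpl5 and Rpl11, whose products carry the 5S ribosomal RNA and can bind Mdm2, each had a log2 change of -0.04 (adjusted p = 0.609 and 0.663). Rpl10, which completes the large subunit late in assembly, had a change of -0.06 (SE 0.05, adjusted p = 0.581), and Rpl23a of -0.06 (adjusted p = 0.508). Rpl10a, at the L1 stalk, went from 1326 ± 60.3 to 1364 ± 58.4 CPM (0.04, SE 0.04, adjusted p = 0.658). It was the subunit gene with the highest log2 change, and its groups overlapped. Without control 2 the changes of Rps6, Rps27a, Rpl5, Rpl11, Rpl10 and Rpl23a lay between -0.02 and -0.00, and that of Rps19 was 0.01. The changes of Rpl5, Rpl11 and Rps19 were slightly above 0 with limma on log2(TPM + 1), where the median of all genes was 0.03, and that of Rpl10a slightly below 0 on the deposited signal.

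Some ribosomal proteins have a second, related gene, and the TPM of the paralog was taken as a share of the pair. For 5 pairs the shares of control and FAC libraries were compared by a two-sided exact permutation test over the 70 assignments, which can give no p below 0.0286, with adjustment over the 5. This test does not use the pairing by mouse. A sign-flip test of the differences within mice gave an adjusted p of 0.625 for each of the 5 pairs, but with 4 mice it cannot give a small p. Rpl22l1 made up 18.6%, 19.9%, 19.3% and 19.9% of its pair with Rpl22, a gene needed for the development of T cells, in control, and 21.5%, 19.5%, 20.7% and 20.1% with FAC. The groups overlapped at FAC 2 (means 19.5% ± 0.604 and 20.4% ± 0.848, n = 4; exact permutation p = 0.114, adjusted 0.190). Rpl36al made up 34.0%, 33.1%, 33.5% and 33.3% of its pair with Rpl36a in control and 33.5%, 32.4%, 31.9% and 31.8% with FAC. It was lower in each mouse and FAC 1 lay among the controls (means 33.5% ± 0.406 and 32.4% ± 0.766, n = 4; exact permutation p = 0.0857, adjusted 0.190). Rps27l made up 7.95%, 8.06%, 7.86% and 8.10% of its pair with Rps27 in control and 8.03%, 7.40%, 7.42% and 7.17% with FAC. It was lower in 3 of 4 mice, and FAC 1 again lay among the controls (means 7.99% ± 0.108 and 7.50% ± 0.370, n = 4; exact permutation p = 0.0857, adjusted 0.190).

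The remaining pairs involve genes of few counts. Rpl39l, known from the testis, made up 0.173% ± 0.0601 of its pair with Rpl39 in control and 0.162% ± 0.0447 with FAC (SD, n = 4; exact permutation p = 0.543, adjusted 0.543). Rps4l, a retrocopy of the X-linked Rps4x, made up 0.0312% ± 0.0253 and 0.0411% ± 0.0103 (SD, n = 4; exact permutation p = 0.543, adjusted 0.543). A lone pair could reach no adjusted p below 0.143, and at least 3 of the 5 pairs would have to lie at the smallest p to pass, so the adjusted values say little of any 1 pair.

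Of the other paralogs and retrocopies, Rpl22l1 had a log2 change of 0.03 (edgeR adjusted p = 0.821) and Rpl36al of -0.10 (0.172). Rps27rt (0.06, adjusted p = 0.685) and Rpl37rt (0.04, adjusted p = 0.760) lay above 0, Rpl37rt below 0 on the deposited signal and with the length offset, while Rps3a3 lay at -0.17 (SE 0.15, adjusted p = 0.584). Rpl6l ranged from 11.1 to 21.2 CPM among the controls alone, with means of 16.7 ± 5.01 in control and 15.9 ± 1.16 CPM with FAC (log2 change -0.07, SE 0.17, adjusted p = 0.855). Rps4l and Rpl39l had SE of 0.41 and 0.38, so a change of the size seen in Rpl7l1 was not detectable at their depth.

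Other genes of ribosome production and translation were taken from lists chosen with earlier results known, and are given by their counts. Over all tested genes edgeR called 1.1% lower and 2.18% higher, the block 2.8% lower and 4.07% higher, and DESeq2 2.23% lower and 3.73% higher. At an unadjusted p under 0.05 edgeR's share over all tested genes was 18.4%, both directions together. Among ribosomal proteins with other names, Fau, which encodes a small-subunit protein fused to a ubiquitin-like protein, had a log2 change of -0.08 (SE 0.04, edgeR adjusted p = 0.344, and 0.139 with the block). Rack1, which encodes a signalling scaffold on the small subunit, had a change of -0.03 (SE 0.04, edgeR adjusted p = 0.694, and 0.576 with the block). Neither passed. Of 39 initiation factor genes, which bring the small subunit to the mRNA, edgeR called 0, with 1 higher and 8 lower at an unadjusted p under 0.05 (median -0.07). DESeq2 called 4 of them lower and edgeR with the block 5. Of 14 tested elongation and release factor genes edgeR called 0, with 5 lower at an unadjusted p under 0.05 (median -0.08), and DESeq2 and the block each called 1 lower. Of 24 genes of mTORC1 and regulators of TOP mRNAs edgeR called 0, with 3 higher and 3 lower at an unadjusted p under 0.05 (median 0.02), and DESeq2 and the block each called 2 lower. Of 20 genes with TOP mRNAs outside the ribosome edgeR called 0, with 2 higher and 5 lower at an unadjusted p under 0.05 (median -0.06). In this list DESeq2 called 1 higher and 1 lower, and the block 1 higher and 2 lower.

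Ribosome assembly genes had some called members, all lower; of all tested genes 1.1% were called lower, and 2.8% with the block. Of 42 large-subunit assembly genes 3 fell: Rrs1, needed to recruit the 5S RNA particle (-0.19, edgeR adjusted p = 0.00841), Zfp622, a late maturation factor (-0.19, 0.0412), and Sbds, which helps to release a factor that blocks joining (-0.18, 0.0418). Of 43 small-subunit assembly genes 2 fell, Pno1 (-0.18, adjusted p = 0.0339) and Snu13 (-0.15, 0.0434), and of 15 chaperone and import genes for ribosomal proteins 1 fell, Tsr2, the chaperone of Rps26 (-0.17, 0.0385). The medians of these lists were -0.06, -0.06 and -0.06, and with the block 7, 4 and 1 genes were lower.

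Of 19 genes of RNA polymerase I and rDNA transcription, Taf1d, of the promoter selectivity factor, rose: the log2 change was 0.34 (SE 0.06, edgeR adjusted p = 0.0113) and the level went from 189 ± 7.78 to 240 ± 24.8 CPM. Polr1c, a polymerase subunit, fell (-0.17, adjusted p = 0.0273), and the median was -0.05 (1 higher and 4 lower with the block). Of 78 mitochondrial ribosomal protein genes 2 fell, Mrpl20 (-0.18, edgeR adjusted p = 0.0417) and Mrps14 (-0.21, 0.0468), and 6 were lower with the block. Of the 78, 72 lay below 0, with a median of -0.09, against 6739 of all 13378 genes tested. Of all these calls that of Rrs1 held whichever library was left out, and that of Taf1d ended only without FAC 3 (0.0547). Each of the other 8 ended without control 1, control 2, FAC 2 or FAC 3, with adjusted p of up to 0.156. Those of Polr1c, Snu13, Sbds, Tsr2, Mrpl20 and Mrps14 also ended without control 3, those of Snu13, Zfp622, Sbds and Tsr2 without control 4, those of Pno1, Snu13, Sbds, Mrpl20 and Mrps14 without FAC 4, and those of Zfp622 and Mrps14 without FAC 1.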

How the data were processed

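The members and the gene lists were chosen with earlier results of these data known. Per the file headers, the authors deposited RSEM output with expected counts (estimated read counts, not scaled between libraries), TPM values and effective lengths for 57010 genes per library, and a table of normalised signal for 13751 genes, of which no source used here gives the scaling or filter. The build GRCm39 and the tools RSEM 1.3.1, STAR 2.7.6a, FastQC, DESeq2 1.26.0, DESeq and R 3.6.3 stand, with no role, in the submitters' processing notes. The strand setting and annotation release are not given in the sources used here, so a gene and an overlapping antisense gene may not be told apart.

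Expected counts were rounded and tested with edgeR 4.0.16 (quasi-likelihood, TMM factors, R 4.3.3) on the group alone, over genes passing its filter (minimum count 10, minimum total 15), with Benjamini-Hochberg adjustment and a threshold of 0.05. The SE is the change over the square root of F. The procedure was also run on simulated counts with known changes. These had the same variability for every gene and no effect of mouse, so they do not show how the tests behave on these libraries. Alternatives were DESeq2 1.42.0, limma 3.58.1 on log2(TPM + 1), log2(TPM + 0.1) and log2(deposited signal + 1), other scaling factors, a length offset, no filter, pseudogene counts added, each library left out and the mouse as a replicate block. The pairing rests on mouse numbers that mark the same animal. Deviations of a mouse's libraries from their group means correlated at r = 0.137, 0.0165, 0.0647 and 0.139 across all tested genes in mice 1 to 4. Across the 89 members r was 0.528, 0.232, 0.174 and 0.0300. One count equals 0.0268 to 0.0394 CPM, and reads have no molecular identifiers. Replicates of a group differed beyond sampling noise. Named genes were members called with or without the block, the 5 highest and 5 lowest in TPM, the 4 largest changes each way, a list of well-known members, up to 3 called genes each way per list, and members next to the filter.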

Additional observations from a re-analysis of the deposited data

Results flagged for a closer look

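Of 94 sets of 4 replicates examined, 5 had 1 library farther from the other 3 than Dixon's outlier limit for sets of that size allows; chance gives about 1 in 20. Rps27l was set apart in both groups, high in control 2 (95.0 CPM) and high in FAC 1 (81.5 CPM). Tsr2 was low in control 3 (74.8 CPM, within a control range that ended at 76.2 CPM). Mrpl20 was low in control 4 (89.9 CPM). The share of Rpl39l in its pair with Rpl39 was low in FAC 4 (0.0953% of TPM, from 9 counts of Rpl39l).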

How the results depend on the processing

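The median change of the 89 members stayed below 0 in every alternative run (-0.09 to -0.02), as did the difference in their share of counts. With the replicate block, pairing cultures of a mouse, 5 members and 919 genes were called, against 1 and 438 without. DESeq2 called 2 members and 797 genes, and no filter on low counts 4 and 736 (1.14% of genes tested were called lower). No member was called by limma on log2(TPM + 1), log2(TPM + 0.1) or the deposited signal, or with the length offset. These fits called 144, 138, 156 and 195 genes, with 6, 6, 23 and 17 members lower at an unadjusted p under 0.05. No share over all genes was taken at that unadjusted limit in these fits, so these counts are not a result about the members. Of genes called, 66.4% were higher with FAC, against 77.8% and 78.3% with limma at the TPM pseudocounts, where the median of all genes was 0.03 and 0.04. Leaving out a library or, with the block, a mouse gave 0 to 22 members and 147 to 1217 genes; 22 came without mouse 4.

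Changes of sign were found only for named genes that no fit called. Rpl39l gave 0.00675 with the block. With limma at the pseudocounts of 1 and 0.1, Rpl6l gave 0.0061 and 0.0076, Rpl32l 0.0131 and 0.0134, Rpl5 0.00708 and 0.00709, Rpl11 0.00177 and 0.00177, Rps19 0.0155 and 0.0155, and Rack1 0.00229 and 0.00229. On the deposited signal Rpl37rt gave -0.014, Rpl10a -0.00114 and Rpl22l1 -0.00695, and with the length offset Rpl37rt gave -0.00219. Leaving out libraries gave -0.000752 to 0.85 for Rps4l, -0.27 to 0.33 for Rpl39l, -0.23 to 0.11 for Rpl6l, -0.0558 to 0.0362 for Rpl32l, -0.00687 to 0.10 for Rpl37rt, -0.0478 to 0.00775 for Rps19 and -0.0159 to 0.0921 for Rpl22l1. The difference in the Rpl39l share was -0.0109 points of TPM, 0.0139 points in expected counts, and -0.0402 to 0.0112 when libraries were left out. Of all values of named genes under alternatives, 733 kept direction and call, 112 lost the call, 21 gained it and 36 changed sign; the causes were not tested. Rps4l and Rpl39l, at 9 to 48 counts per library, are limited by depth.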
